A study of Rattus norvegicus with 53 samples.

Results

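Blood mononuclear cells of healthy Brown Norway (BN) rats were cultured with serum of prediabetic BB rats, with an interleukin-1 receptor antagonist added to the culture, and their expression was set against cells kept in serum of their own donor. The comparison comprised 8 of the 53 arrays of the series, namely all 4 arrays labelled as day-60 DRlyp/lyp serum with added IL-1RA and replicates 7 to 10 of the autologous BN cultures. The autologous replicates were chosen because they lay in the same cluster of arrays as the supplemented cultures. That cluster held 32 arrays and the other 21, it was found from the values themselves, and the labels do not describe it. One probe set represented each gene, the one with the highest mean over all arrays, which gave 14217 genes.

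In every culture the cells came from healthy male BN rats of 180 days and were exposed for 6 h to medium containing 20% serum or plasma; the labels use both words. The DRlyp/lyp line of the BB rat carries a lymphopenia allele and develops autoimmune diabetes. Its serum donors here were 60 days old, and animals with high blood glucose had been left out of prediabetic studies. The donors of all BN sera were 180 days old, so the age of the serum donor differed together with strain. IL-1RA is the interleukin-1 receptor antagonist, described as human recombinant protein where the labels name its source for injection, and its concentration in culture is not given in the sources used here. Values for 4 cultures with unsupplemented day-60 DRlyp/lyp serum, 4 with autologous serum plus interleukin-1B (IL-1B) and 12 with serum of other BN rats (allogeneic) are given beside the comparison. The fit also held 4 arrays with day-60 serum of DR+/+ rats, the non-lymphopenic BB line. Nothing in the labels says that arrays of one group came from separate donors or cultures, so the p-values measure the spread between these arrays, which may be partly technical.

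Interleukin-1 alpha and beta bind the receptor Il1r1 with its partner Il1rap, and signal through Irak kinases to the transcription factor NF-kappaB, which drives chemokines and cytokines in monocytes. IL-1RA occupies the receptor without starting the signal, and Il1r2 is a decoy receptor. Blood cells also answer oxidative stress, through the transcription factor NRF2, with redox enzymes such as Nqo1.

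The supplemented DRlyp/lyp cultures had higher levels of a small set of redox, matrix and endocytosis genes than the autologous cultures. In limma, with Benjamini-Hochberg adjustment over 31042 probe sets, 11 probe sets rose (0.0354% of those tested) and 0 fell, at an adjusted p under 0.05. At an unadjusted p under 0.05, 1115 were higher and 1271 lower. The called genes were Akr1b8, Nqo1 and Dab2 (3 of 14217 genes, 0.0211%), and second probe sets of Vcan, Abca1, Thbd and Rbm47 were also called. The count rested on single arrays: it was 9 without IL-1RA replicate 1, 1 without replicate 2, 2 without replicate 3 and 1 without replicate 4. Without autologous replicates 7, 8, 9 and 10 in turn it was 2, 18, 1 and 1. One allogeneic array, replicate 15, had high levels of several of these genes and entered the shared estimate of the spread; without it 24 probe sets were called.

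Both called members of the redox list are enzymes that detoxify reactive carbonyls and quinones. Their promoters, taken from RefSeq on the GRCr8 build, are shown with that of the chemokine gene Cxcl1, a textbook NF-kappaB target that was not called. The activity of NRF2 or NF-kappaB was not tested. Each runs 5′ to 3′ on the gene's strand over 300 bases around the start site, and capitals mark matches to the kappaB motif (GGGA, any 2 bases, TTCC). Akr1b8 lies at chr4:63964171-63964470 on the plus strand, Nqo1 at chr19:52220218-52220517 on the minus strand and Cxcl1 at chr14:17479272-17479571 on the minus strand.
Akr1b8: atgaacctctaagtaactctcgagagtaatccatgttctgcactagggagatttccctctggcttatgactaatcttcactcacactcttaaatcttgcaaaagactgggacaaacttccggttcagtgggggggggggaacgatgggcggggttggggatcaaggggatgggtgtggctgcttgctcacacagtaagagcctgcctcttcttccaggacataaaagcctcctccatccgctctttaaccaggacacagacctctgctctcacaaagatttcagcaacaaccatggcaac
Nqo1: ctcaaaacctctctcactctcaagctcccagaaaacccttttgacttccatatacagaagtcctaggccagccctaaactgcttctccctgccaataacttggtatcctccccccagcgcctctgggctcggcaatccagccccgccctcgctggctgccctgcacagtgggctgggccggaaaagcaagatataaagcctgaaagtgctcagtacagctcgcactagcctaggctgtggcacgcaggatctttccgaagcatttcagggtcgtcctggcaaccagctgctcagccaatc
Cxcl1: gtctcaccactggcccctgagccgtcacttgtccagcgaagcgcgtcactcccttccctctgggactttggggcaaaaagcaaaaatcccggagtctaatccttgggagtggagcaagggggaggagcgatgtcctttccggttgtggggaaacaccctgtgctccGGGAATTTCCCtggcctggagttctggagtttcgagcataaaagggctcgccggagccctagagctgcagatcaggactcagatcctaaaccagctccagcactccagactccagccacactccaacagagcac
Both strands were searched, and overlapping matches were counted separately. The antioxidant response element core, TGACNNNGC, was in 12.1% of 33469 RefSeq promoters and in 0 of these 3 windows. Bases outside the 300 were not searched, so a count of 0 does not mean that a gene lacks the element. The kappaB motif was in 1.3% of promoters; the Cxcl1 window held 2 overlapping matches, 1 on each strand, and the other 2 windows held 0. Of 28 members of the NRF2 redox list with a promoter entry, 10 held the antioxidant core (35.7%), Gclm, Gstp1 and Prdx1 among them. A match is a description of letters, not a binding site.

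Akr1b8, an aldo-keto reductase that reduces reactive aldehydes, had log2 levels of 9.34, 9.02, 7.87 and 8.64 in the supplemented DRlyp/lyp cultures, against 6.40, 7.05, 5.25 and 4.88 in the autologous cultures. Every supplemented array was above every autologous one. The log2 difference was 2.82 (95% confidence interval 1.85 to 3.78), a fold of 7.05, with a limma adjusted p of 0.017. Without IL-1RA the 4 DRlyp/lyp cultures lay at 9.22, 8.72, 8.26 and 8.33, within the range of the supplemented ones. The direct difference between supplemented and unsupplemented serum was 0.08 (95% confidence interval -0.88 to 1.05). IL-1B in autologous serum gave 5.70, 6.59, 5.36 and 5.64, a difference from autologous serum alone of -0.07.

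Nqo1, a quinone reductase and textbook NRF2 target, had 8.11, 8.53, 7.94 and 8.76 in the supplemented DRlyp/lyp cultures, against 5.89, 7.46, 6.42 and 6.34 in the autologous cultures. The groups did not overlap, and autologous replicate 8 was the highest of its group. The log2 difference was 1.81 (95% confidence interval 1.08 to 2.54) with a limma adjusted p of 0.0443. The difference from unsupplemented DRlyp/lyp serum was 0.04, with an interval of -0.68 to 0.77. Akr1b8 kept its call in 5 of 9 fits that left out 1 array and Nqo1 in 2 of 9, while their differences stayed within 2.48 to 3.20 and 1.60 to 2.12.

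Among 29 measured NRF2 redox genes, these 2 rose, 0 fell and the median log2 difference was 0.16, beside -0.04 over all genes. In 4 of the 29 every supplemented array exceeded every autologous array, where 3.18% of all genes did so. The other 2 were Hmox1, the haem-degrading oxygenase, and Slc7a11, the cystine importer. Hmox1 had 6.53, 7.35, 6.67 and 6.87 in supplemented cultures, against 5.97, 6.43, 5.39 and 5.13 in autologous cultures, and its difference of 1.13 had an adjusted p of 0.247. Slc7a11 differed by 1.22 with an adjusted p of 0.223, so neither passed the test. The classical members Gclm, Txn1 and Gstp1 had differences of -0.07, -0.08 and -0.35.

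**Figure D1:**
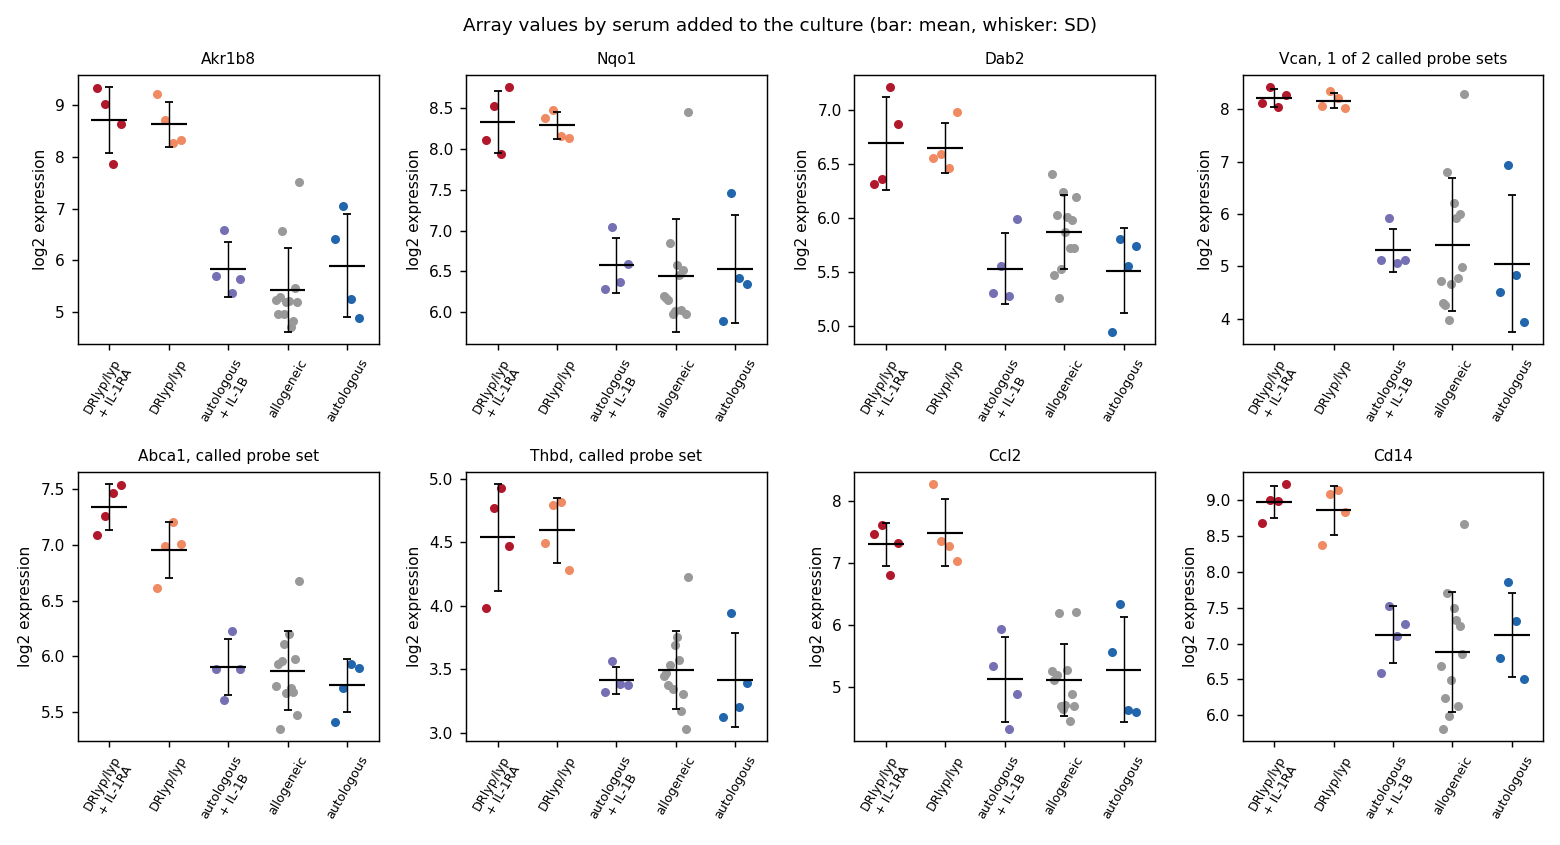
Log2 expression (vertical axes) of 8 probe sets in the supplemented and unsupplemented DRlyp/lyp, IL-1B, allogeneic and autologous cultures; points are arrays, bars are means and whiskers 1 SD. For Akr1b8 the supplemented arrays span 7.87 to 9.34, and the autologous ones span 4.88 to 7.05.

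Of the matrix and adhesion genes that monocytes make, Dab2 passed the test by its representative probe set. Dab2, an adaptor of clathrin-mediated endocytosis, had 6.32, 6.36, 7.21 and 6.87 in the supplemented DRlyp/lyp cultures, against 4.95, 5.81, 5.56 and 5.74 in the autologous cultures. The groups did not overlap, and the log2 difference was 1.18 (95% confidence interval 0.71 to 1.65, limma adjusted p 0.0443). It kept its call in 3 of 9 fits that left out 1 array.

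Vcan encodes versican, a large chondroitin sulphate proteoglycan of the extracellular matrix, and had 5 probe sets. Probe set 1388142_at read 8.12, 8.42, 8.04 and 8.28 in the supplemented DRlyp/lyp cultures, against 4.51, 6.94, 4.83 and 3.95 in the autologous cultures. Autologous replicate 8 stood above the other 3 and still below every supplemented array. Its log2 difference of 3.16 (95% confidence interval 1.89 to 4.43) and that of 1388265_x_at, 1.86, passed with adjusted p of 0.0443 and 0.0332. The representative probe set differed by 2.05 with an adjusted p of 0.121 and another by 2.15 with 0.0553, while 1371233_at, dim in every culture, differed by 0.07. The 4 brighter probe sets were thus higher by 1.86 to 3.16.

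Fn1, Tgfbi and Gpnmb, which encode fibronectin, a collagen-binding matrix protein and a lysosomal glycoprotein of macrophages, did not overlap between groups either. Fn1 had 9.07, 10.17, 10.07 and 9.47 in supplemented cultures, against 7.04, 8.97, 7.66 and 6.69 in autologous cultures, and differed by 2.11 with an adjusted p of 0.347. Tgfbi and Gpnmb differed by 1.69 and 1.70, with adjusted p of 0.526 and 0.549. Mmp14, a membrane-anchored collagenase, came closest of the remaining members. It had 6.62, 7.66, 7.71 and 7.34 in supplemented cultures, against 5.26, 6.11, 5.75 and 5.68 in autologous cultures, a difference of 1.63 with an adjusted p of 0.0614. The dimmer second probe set of Mmp14 differed by 0.06. Over the 21 measured members, 1 rose, 0 fell, 6 did not overlap upward (3.18% over all genes) and the median difference was 0.16.

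Monocyte identity genes were measured because, in blood, such matrix proteins come largely from monocytes. Of 27 measured, 0 passed the test, 21 had a positive difference and 6 a negative one, and the median was 0.21, beside -0.04 over all genes. In 7 of the 27 the supplemented arrays all exceeded the autologous arrays, as they did for 3.18% of all genes. Cd14, the lipopolysaccharide co-receptor, had 8.69, 9.0, 8.99 and 9.22 in supplemented DRlyp/lyp cultures, against 6.81, 7.85, 7.31 and 6.51 in autologous cultures. All supplemented arrays lay above all autologous ones, and the difference of 1.86 had an adjusted p of 0.138. Mpeg1, the pore-forming macrophage protein perforin-2, differed by 1.56 and the lysosomal marker Cd68 by 0.69, with adjusted p of 0.423 and 0.618. From the separate list of Fc receptors, the high-affinity IgG receptor gene Fcgr1a differed by 0.75 and Fcgrt by -0.47, both with an adjusted p of 0.569. Of 8 measured Fc receptors 0 passed, 5 were higher and 3 lower, and the median was 0.08.

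The mean log2 level of 5 monocyte markers (Cd14, Cd68, Csf1r, Lyz2 and Mpeg1) was 8.64 to 9.12 in the supplemented DRlyp/lyp arrays, against 7.51 to 8.38 in the autologous arrays. It was higher for 5 of 5 markers and did not overlap for 3, where 3.18% of all genes did not overlap upward. The median difference of the 5 markers was 0.69. In bulk samples, fewer cells of a type and less RNA per cell cannot be told apart, and the part of this shift in the matrix, redox and chemokine differences was not tested. The unsupplemented DRlyp/lyp arrays lay at 8.76 to 9.04 and the IL-1B arrays at 7.66 to 8.06.

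Platelet genes stood at the other end of the lists. All 21 measured had a negative difference, 0 passed the test, and the median was -0.62, beside -0.04 over all genes. The groups failed to overlap for 1 of the 21, Mmrn1, which encodes the granule protein multimerin. Over all genes 2.92% did not overlap downward. Mmrn1 had 8.07, 7.49, 7.57 and 7.79 in supplemented DRlyp/lyp cultures, against 9.42, 9.21, 8.11 and 9.08 in autologous cultures, a difference of -1.22 with an adjusted p of 0.442. The thrombin receptor gene F2rl2 overlapped and differed by -0.88. The mean of 7 platelet markers was 9.45 to 10.30 in the supplemented arrays, against 9.78 to 10.91 in the autologous arrays, so the ranges overlapped, and 0 of 7 markers were higher. Platelet list medians were -0.67 for unsupplemented DRlyp/lyp serum against autologous serum and 0.06 for supplemented against unsupplemented serum.

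Markers of the lymphocytes that make up most of such preparations differed less. T-cell markers averaged 9.12 to 10.19 in the supplemented arrays, against 8.87 to 10.17 in the autologous arrays. B-cell markers lay at 8.27 to 9.38 in supplemented arrays, against 8.44 to 9.11 in autologous arrays. Natural killer cell markers lay at 7.46 to 8.08 in supplemented arrays, against 7.51 to 8.19 in autologous arrays. Of 21 natural killer and cytotoxic genes 0 passed, 8 were higher and 13 lower, and the median was -0.08. In 3 of them the groups did not overlap downward, where 2.92% of all genes did so. Erythroid markers, with haemoglobin transcripts among them, were at 11.77 to 11.97 in supplemented arrays, against 11.70 to 11.95 in autologous arrays, and neutrophil markers were dim in both. RNA integrity was judged from actin, whose signal at the 3′ end exceeded that at the 5′ end by a log2 value of 2.24 to 2.79 in supplemented arrays, against 2.37 to 2.78 in autologous arrays.

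**Figure D2:**
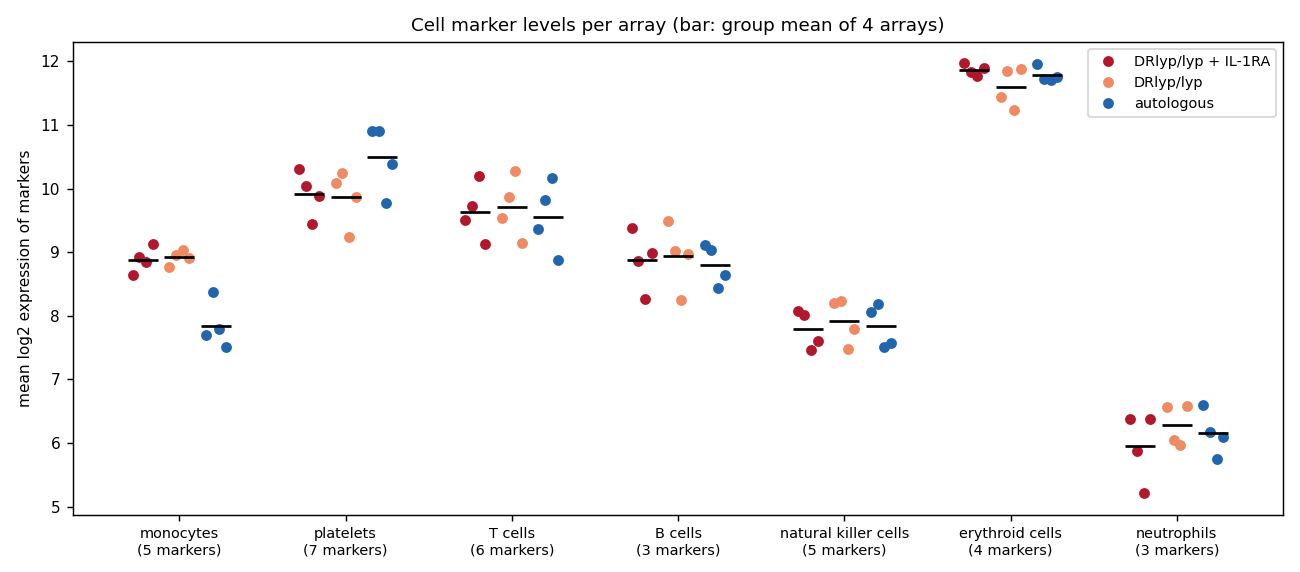
Mean log2 expression of fixed marker genes (vertical axis) for 7 cell types (horizontal axis) in 4 supplemented DRlyp/lyp, 4 unsupplemented DRlyp/lyp and 4 autologous arrays; points are arrays and bars are group means. The monocyte markers lie at 8.64 to 9.12 in the supplemented arrays, above the autologous range of 7.51 to 8.38.

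Chemokines that monocytes release in response to interleukin-1 did not pass the test. Ccl2, which recruits monocytes, had 7.45, 7.61, 6.81 and 7.32 in supplemented DRlyp/lyp cultures, against 5.57, 6.34, 4.63 and 4.59 in autologous cultures. All supplemented arrays were higher, by 2.02 on average (95% confidence interval 1.14 to 2.89, adjusted p 0.0855). Its level did not separate the supplemented cultures from unsupplemented DRlyp/lyp cultures at 8.26, 7.35, 7.28 and 7.03. That direct difference was -0.18, with an interval of -1.06 to 0.69. Ccr1, a receptor for such chemokines, differed from autologous serum by 1.12 with an adjusted p of 0.223. Of 16 CC chemokines and receptors 0 passed, 2 did not overlap upward and 1 downward (3.18% and 2.92% over all genes), and the median was -0.07.

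Cxcl1 and Cxcl2 are neutrophil-attracting chemokines and textbook NF-kappaB targets. Cxcl1 had 5.48, 5.23, 4.94 and 5.15 in supplemented DRlyp/lyp cultures, against 4.20, 4.77, 4.18 and 4.25 in autologous cultures. The groups did not overlap, and the difference of 0.85 had an adjusted p of 0.121. Unsupplemented DRlyp/lyp serum gave 5.01, 4.61, 4.75 and 4.56, and the direct difference of 0.47 (95% confidence interval 0.09 to 0.85) did not pass adjustment. Cxcl2 had 9.21, 8.91, 8.90 and 9.11 in supplemented cultures, against 8.68, 7.65, 6.87 and 6.56 in autologous cultures, a difference of 1.60 without overlap and with an adjusted p of 0.198. Of 26 inflammatory cytokine, CXC chemokine and Nos2 genes 0 passed and the median was -0.08. Il6 differed by 0.22.

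The NF-kappaB feedback and survival list had the highest median of the 34 lists, 0.28, with 17 of 21 members positive and 0 passing. Ier3, a stress-induced survival gene, had 7.38, 7.45, 6.99 and 6.98 in supplemented DRlyp/lyp cultures, against 5.71, 6.77, 5.72 and 5.62 in autologous cultures. The supplemented arrays were all higher, and the difference of 1.24 had an adjusted p of 0.138. Icam1, a leukocyte adhesion molecule, overlapped and differed by 0.62. Under supplemented against unsupplemented serum the list median was -0.06.

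In the interleukin-1 family itself no member passed the test. Il1b had 10.00, 9.85, 9.24 and 9.55 in supplemented DRlyp/lyp cultures, against 9.35, 9.61, 8.47 and 7.77 in autologous cultures. The groups overlapped, and the difference of 0.86 (95% confidence interval 0.24 to 1.47) had an adjusted p of 0.588. Il1a, encoding the other agonist, differed by 0.16 and Il1rn, the cells' own antagonist, by -0.12. Receptor differences were -0.21 for Il1r1, 0.24 for Il1rap and -0.64 for the decoy Il1r2, all with overlapping groups. Il36rn, antagonist of the related interleukin-36 receptor, was lower in every supplemented array, with a difference of -0.37 and an adjusted p of 0.633. Against the same autologous arrays it differed by -0.37 with unsupplemented DRlyp/lyp serum and by -0.31 with IL-1B. Of 13 measured family members 0 passed and the median was -0.01. Irak2, a kinase of the receptor complex, differed by 0.67 with an adjusted p of 0.665.

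Cholesterol export and myeloid surface genes included 2 of the remaining called probe sets. Abca1, the cholesterol efflux pump, read 7.09, 7.26, 7.46 and 7.54 on probe set 1382431_at in supplemented DRlyp/lyp cultures, against 5.41, 5.72, 5.93 and 5.89 in autologous cultures. The groups were well apart, with a log2 difference of 1.60 (95% confidence interval 1.03 to 2.17, limma adjusted p 0.0172). The representative Abca1 probe set differed by 0.76 with an adjusted p of 0.437, and also did not overlap. Abcg1, its partner in cholesterol efflux, differed by 1.16 with an adjusted p of 0.138 on its brightest probe set and by -0.41 and 0.17 on the other 2. Of 26 liver X receptor and lipid handling genes 0 passed on their representative probe sets, 4 did not overlap upward and 1 downward (3.18% and 2.92% over all genes), and the median was 0.11.

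Thbd, thrombomodulin, rose by 1.12 on probe set 1375951_at, with 3.98, 4.77, 4.93 and 4.47 in supplemented DRlyp/lyp cultures, against 3.12, 3.94, 3.20 and 3.40 in autologous cultures. Its other 2 probe sets differed by -0.17 and 0.13, and all 3 were dim, so the probe sets disagree. Rbm47, an RNA-binding protein, rose by 0.91 on probe set 1380334_at and differed by 0.35 on its representative. The called probe set with the smallest adjusted p, 0.00178, was 1391505_x_at, which has no gene symbol in the annotation. It had 6.73, 6.92, 7.17 and 6.48 in supplemented cultures, against 4.87, 5.42, 5.09 and 4.39 in autologous cultures. It was the only one called in all 9 fits that left out 1 array. The other 2 without a symbol, 1392736_at and 1378673_at, rose by 1.46 and 1.23.

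Egr1, an immediate early transcription factor, and Vegfa, an angiogenic growth factor, were higher in every supplemented array, by 1.17 and 0.82, with adjusted p of 0.27 and 0.424. The other Vegfa probe set differed by 0.15. Of 26 immediate early and Kruppel-like factors 0 passed and the median was 0.23. Slc2a1, the glucose transporter, differed by 0.50, and the stress kinase homologue Trib3 by 0.70. The MHC class II transactivator gene Ciita was higher by 0.57 in supplemented than in autologous arrays, while Marchf8, a ligase that removes class II from the surface, was lower (-0.61); both had an adjusted p above 0.6. Cdkn1a, a cell cycle inhibitor, differed by 0.43 and the endosomal RNA sensor Tlr8 by 1.04.

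No gene was called lower. The named genes of smallest p in that direction were Mapk11, a p38 kinase, at -0.35, the mast cell protease gene Mcpt1l1 at -1.06, Tex2 at -0.92, Ltbp1 at -1.05, the potassium channel subunit Kcnab1 at -1.60, the adhesion molecule Esam at -0.71, Mtarc1 at -0.52 and Dennd2c at -1.43. Their adjusted p ran from 0.126 to 0.41. Mapk11 was dim, with means of 3.07 in supplemented and 3.42 in autologous arrays. Against the same autologous arrays it differed by -0.35 with unsupplemented DRlyp/lyp serum and by -0.32 with IL-1B. Kcnab1 had 9.39, 8.70, 8.36 and 8.85 in supplemented DRlyp/lyp cultures, against 10.87, 10.57, 9.40 and 10.85 in autologous cultures. Supplemented replicate 1, at 9.39, lay just under the lowest autologous array. In the other direction Ccdc71, of which little is known, differed by 0.92 with an adjusted p of 0.0855, while its second probe set differed by -0.17.

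**Figure D3:**
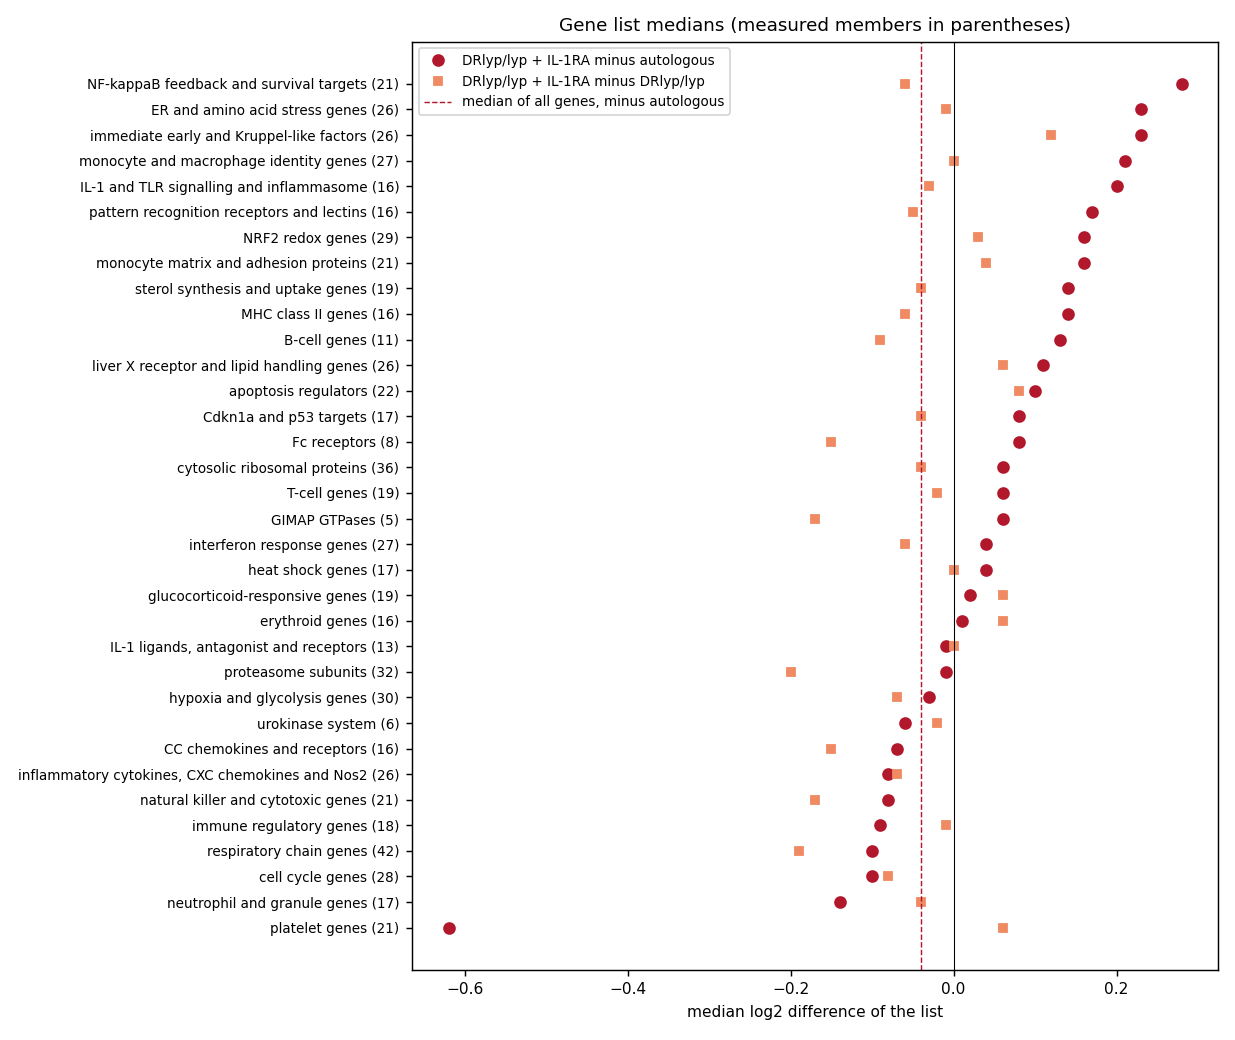
Median log2 difference (horizontal axis) of 34 gene lists (vertical axis, measured members in parentheses), for supplemented DRlyp/lyp against autologous serum (circles) and against unsupplemented DRlyp/lyp serum (squares); the dashed line is the median of all genes. Medians against autologous serum run from -0.62 for platelet genes to 0.28 for NF-kappaB feedback and survival targets.

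The effect of the blocker itself was tested by setting supplemented against unsupplemented DRlyp/lyp serum, a comparison without autologous arrays. With limma 0 of 31042 probe sets were called in either direction (0%), the smallest adjusted p was 1, and 808 had an unadjusted p under 0.05. The genes of smallest p were Ccdc71 at 0.78, Sap130, a subunit of a histone deacetylase complex, at 0.70, and Rpain, an import factor of replication protein A, at -0.71. Over all genes the median 95% confidence interval extended 0.413 on the log2 scale to either side, before any adjustment. Larger shifts could also miss the adjusted test: Ccdc71, at 0.78, had an unadjusted limma p of 0.000381 and was not called. For the 3 called genes the direct differences were 0.08, 0.04 and 0.04, and their intervals lay between -0.88 and 1.05, which leaves room for changes of either sign. Mmp14 had the largest direct difference of those described above, 0.81 (95% confidence interval 0.13 to 1.49), with unsupplemented levels of 6.08, 7.48, 6.08 and 6.46.

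Unsupplemented DRlyp/lyp serum against the same 4 autologous arrays gave 2 called probe sets (0.00644%), Akr1b8 and the Thbd probe set. With those shared arrays its differences for Akr1b8, Nqo1, Dab2, Ccl2 and Cd14 were 2.74, 1.76, 1.14, 2.20 and 1.74. IL-1B in autologous serum, again against those arrays, gave 0 calls (0%) and 855 probe sets at an unadjusted p under 0.05. Its differences for the same genes were -0.07, 0.05, 0.02, -0.16 and 0.01. For Il1b, Il1a and Il1rn they were -0.11, -0.07 and -0.05, and for Cxcl1 0.18. The dose of IL-1B is not given in the sources used here. With day-60 DR+/+ serum the mean log2 levels of Akr1b8, Nqo1 and Dab2 were 8.70, 8.57 and 6.77. In the supplemented DRlyp/lyp cultures they were 8.72, 8.33 and 6.69, so high levels of these genes were not particular to DRlyp/lyp serum. The difference between these 2 groups was not tested.

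**Figure D4:**
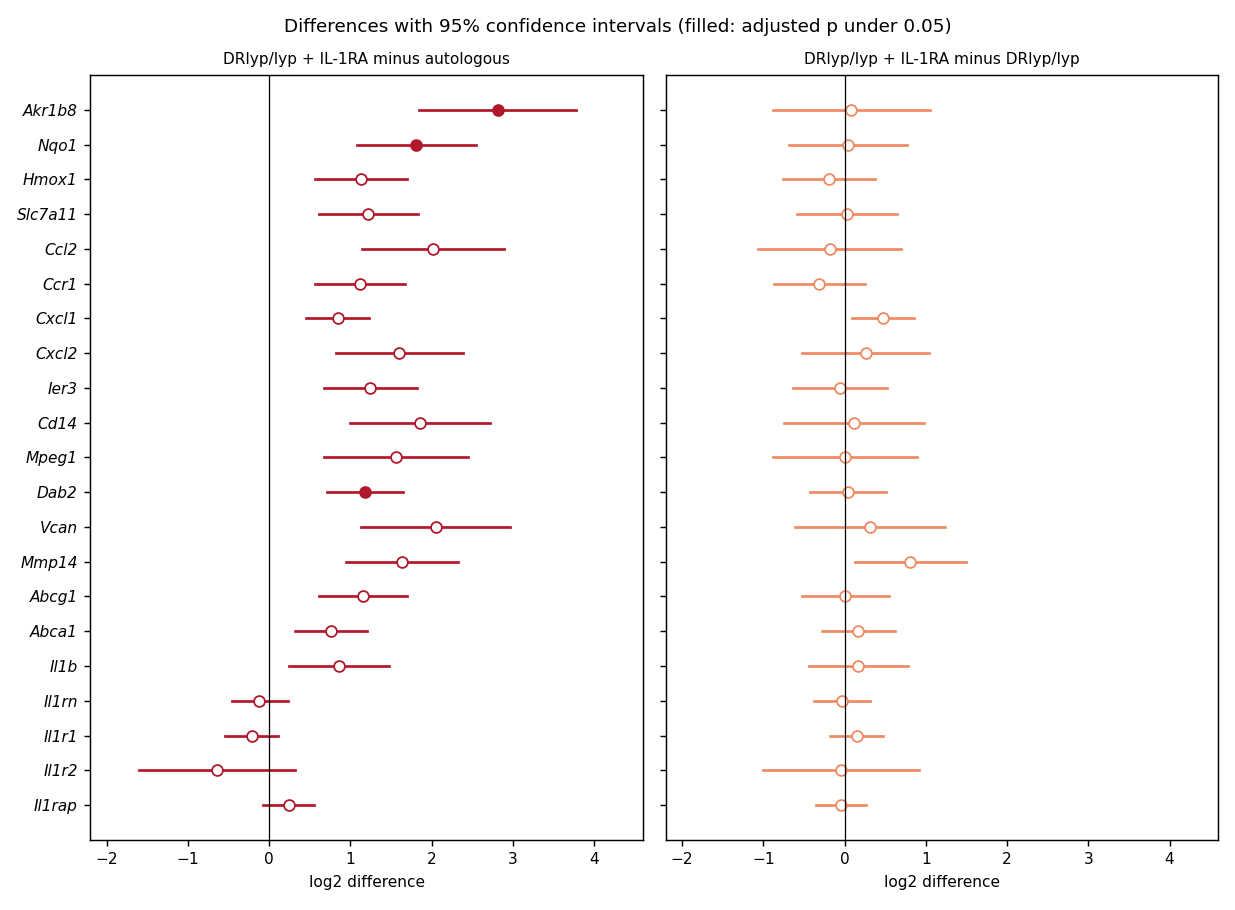
Log2 differences (horizontal axes) with 95% confidence intervals for 21 genes, supplemented DRlyp/lyp against autologous serum (left) and against unsupplemented DRlyp/lyp serum (right); filled points passed an adjusted p under 0.05. Akr1b8 stands at 2.82 on the left and 0.08 on the right, and no point on the right is filled.

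Serum of other BN rats provided a second reference, which shares the 4 supplemented arrays but no control. Against 12 allogeneic arrays, 1960 probe sets rose (6.31%) and 1368 fell (4.41%); 1411 genes rose (9.92%) and 587 fell (4.13%). These counts depended on single arrays: without supplemented replicates 1, 2, 3 and 4 in turn they came to 1127, 60, 67 and 1280 probe sets. Centring each array on its median turned the split to 2358 higher and 843 lower. Akr1b8 rose by 3.30 with an adjusted p of 2.24e-05; its lowest supplemented array, at 7.87, was above the highest allogeneic one at 7.51, and the allogeneic median was 5.20. Nqo1 and Dab2 rose by 1.89 and 0.82, and their groups overlapped: the highest allogeneic Nqo1 value, 8.45, belonged to replicate 15. Without that array 3807 probe sets were called.

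Several genes that missed the test against autologous serum passed it against allogeneic serum. Ccl2 rose by 2.19 (adjusted p 0.00137), Cxcl1 by 1.09 (0.000286), Ier3 by 1.42 (0.00156), Cd14 by 2.09 (0.00186) and Il1b by 1.37 (0.00442). Cxcl1 lay at 4.94 to 5.48 in supplemented arrays, all above the allogeneic range of 3.83 to 4.34. Of the lists, 11 of 21 NF-kappaB targets rose and 0 fell, with a median of 0.74, beside 0.04 over all genes, of which 9.92% rose. A high median was not particular to that list. Medians were 0.70 for cytosolic ribosomal proteins, 0.55 for proteasome subunits and 0.47 for respiratory chain genes. Of these, 8 of 36, 10 of 32 and 5 of 42 rose and 0 fell. Among probe sets above the median level 2395 rose and 561 fell. The NRF2 redox list had 7 of 29 members rising and 0 falling with a median of 0.30, which came to -0.00 after a second quantile normalisation. Platelet genes had a median of -0.25, and 1 of 21 fell, a share near the 4.13% of all genes.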

How the data were processed

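Affymetrix rat arrays measured total RNA of 53 cultures. The deposited values are log2 expression per probe set, made by the authors with RMA and Partek 6.2, per the submitters' processing notes; the role of each tool and the array scan dates are not given in the sources used here. This method compresses differences near background, which understates changes of dim genes. No pair of arrays correlated above 0.999 (highest 0.996).

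Of 31099 probe sets, 57 controls were left out and 31042 tested. The annotation gave 1 symbol for 20826, several for 436 and none for 9780; 20758 matched the rat gene table and 0 symbols changed. Groups were fitted in limma 3.58.1 (R 4.3.3) with trended variances over the 32 arrays of the second cluster, 6 groups with 26 residual degrees of freedom. Adjusted p-values are Benjamini-Hochberg over all probe sets, called under 0.05. On simulated data of 31042 probe sets with independent noise, the comparison with autologous serum recovered 66% of changes of log2 1 and 97% of log2 2, with 10 false calls. These rates need not hold for real arrays, whose noise is shared. Ward clustering placed 53 of 53 arrays as used here, but it used the same values from which the clusters were found, so it is no independent check. Python 3.11.15 and matplotlib 3.10.9 drew the figures.

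The members, the 34 gene lists and the naming rule were chosen with earlier results of these data known. Named genes were called genes, those of smallest p up to 8 per direction, up to 4 called or 2 of smallest p per list, the interleukin-1 genes, and the 3 of smallest p against unsupplemented serum; further list members, such as those whose groups did not overlap, and the probe sets without a symbol were picked after their values were seen. Alternatives were other sets of arrays, normalisations, a filter on dim probe sets, variance models, array weights, actin as a covariate, other thresholds, other probe sets and leaving out arrays; leaving out allogeneic replicate 15 was added after the data were seen. The precision is limited by the number of arrays. Replicate numbers of supplemented and unsupplemented cultures were checked for pairing, with a minimum r of 0.1; the lowest was 0.0706, so they were not treated as pairs.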

Additional observations from a re-analysis of the deposited data

Results flagged for a closer look

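In groups of 4, an array was singled out when its gap to the nearest other array divided by the group's range exceeded Dixon's 95% critical value, which chance does for about 1 group in 20; 7 of 108 groups did. In the supplemented DRlyp/lyp cultures, replicate 2 was highest for Gpnmb at 11.02 and lowest for Ltbp1 at 4.92, replicate 4 was highest for Tlr8 at 5.66, and replicate 3 was lowest for Irak2 at 8.16. In the autologous cultures, replicate 8 was highest for Cxcl1 at 4.77 and Ier3 at 6.77, and replicate 7 was highest for the representative Thbd probe set at 4.19. Leaving out autologous replicate 8 raised the number of called probe sets to 18.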

How the results depend on the processing

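For supplemented DRlyp/lyp against autologous serum, 11 probe sets were called. The count was 26 over all 53 arrays without and 29 with the array cluster as a block, 7 after a second quantile normalisation, 4 among brighter probe sets, 5 without a variance trend and 36 with array weights. It was 1 at an adjusted p under 0.01, 30 at a looser threshold (adjusted p under 0.2, difference of 0.5 or more), and 1 to 24 when 1 array was left out. For unsupplemented serum (2 called) the same settings gave 51, 9, 1, 1, 0, 5, 0 and 11, the actin covariate gave 1, and leaving out 1 array gave 0 to 8. Against allogeneic serum (3328 called, 1960 higher and 1368 lower) they gave 57 and 5134 over all arrays, 977 after quantile normalisation (504 higher and 473 lower), 8176 with array weights, 7088 with the actin covariate, 81 at 0.01, and 60 to 3807 without 1 array. Supplemented against unsupplemented serum and IL-1B against autologous serum gave 0 called probe sets under every alternative fit.

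Over all 53 arrays without the block, the difference from autologous serum turned to -0.06 for Ccdc71, 0.16 for Il1rn, 0.01 for Il1r1, 0.07 for Esam, 0.03 for Mtarc1, 0.05 for F2rl2 and 0.10 for Thbd. On another probe set of the gene it was -0.17 for Ccdc71, -0.41 for Abcg1, -0.27 for Mpeg1, -0.13 for Il1a, 0.07 for Il1r1, 0.12 for Mtarc1, and 0.13 and 1.12 for Thbd. The causes were not tested. Of 612 list medians under the alternatives, 76 moved by more than the spread between arrays. A block was not fitted for the comparison with autologous serum, whose groups share no replicate numbers and whose arrays the labels do not link. With the replicate block, 8 arrays of supplemented and unsupplemented serum gave 0 calls and 3613 probe sets at an unadjusted p under 0.05; same-numbered arrays correlated at r = 0.0706, 0.511, 0.649 and 0.306 in their deviations, and the arrays were not treated as pairs because of the first. With 4 arrays a group and RMA compression, small changes of dim genes could not be detected.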

Other observations

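In supplemented against unsupplemented DRlyp/lyp serum, 0 respiratory chain or proteasome genes were called. Of 42 respiratory chain genes 38 were lower with IL-1RA, with a median of -0.19, beside -0.03 over all genes, and 4 did not overlap, where 1.6% of all genes did so. Of 32 proteasome subunits, the barrel and cap proteins of the cell's main protease, 26 were lower, with a median of -0.20, and 5 did not overlap. Second quantile normalisation, centring of arrays and the actin covariate gave -0.18, -0.21 and -0.26 for the respiratory chain and -0.20, -0.23 and -0.27 for the proteasome. The array means of both lists overlapped: respiratory chain genes lay at 9.29 to 9.55 in supplemented arrays, against 9.28 to 9.82 in unsupplemented arrays, and proteasome subunits averaged 9.41 ± 0.09 in supplemented arrays, against 9.59 ± 0.24 in unsupplemented arrays (SD, n = 4 each). IL-1B in autologous serum against autologous serum alone gave 39 of 42 and 27 of 32 lower, with medians of -0.19 and -0.15. For supplemented DRlyp/lyp against autologous serum the medians were -0.10 and -0.01.

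Stress genes of the endoplasmic reticulum and of amino acid shortage had 13 of 26 members rising and 0 falling in supplemented DRlyp/lyp against allogeneic serum, where 9.92% of all genes rose and 4.13% fell, with a median of 0.72; quantile normalisation gave 0.40. Cytosolic ribosomal proteins had a median of 0.70 in the same comparison. Against autologous serum the median of the stress genes was 0.23 and 0 passed.

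The deviation of each supplemented array from its group mean was correlated across 31042 probe sets with that of each autologous array. Replicates 1, 2, 3 and 4 of the supplemented cultures correlated best with autologous replicates 7, 8, 9 and 10, in that order, at r = 0.47, 0.39, 0.72 and 0.35. Other combinations ran from -0.56 to 0.32. Probe sets are not independent replicates, and the labels do not link these arrays. T-cell genes averaged 8.49, 8.85, 9.21 and 8.25 in supplemented replicates 1 to 4, against 8.25, 8.77, 9.20 and 8.13 in autologous replicates 7 to 10. Replicates 1 to 4 lay in the same order with unsupplemented DRlyp/lyp serum (8.55, 8.88, 9.20 and 8.18) and DR+/+ serum (8.43, 8.84, 9.25 and 8.17). With IL-1B they had 8.26, 8.78, 9.06 and 8.15. Whether arrays of different groups shared cells was not tested. No fit against autologous serum was built on this order, so the calls come from a model that treats the arrays as unlinked. Any spread that replicates of different groups share remains in its p-values.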
